A study of Mus musculus with 6 samples.

Results

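The methyl-CpG readers are nuclear proteins that bind DNA where the cytosine of a CpG pair carries a methyl group, or that descend from such proteins. Here they are the 6 genes Mbd1 to Mbd6, which share the methyl-CpG binding domain, and the zinc finger genes Zbtb33 and Zbtb38. They were read through all probes of the authors' expression matrix that either of its symbol columns names for one of these 8 genes, which gave 13 probes of 41174. RNA came from medullary thymic epithelial cells (mTECs), which present proteins of many organs to maturing T cells, sorted from Mbd1 knockout (KO) and Mbd1 wild type (WT) mice 30 days old. The sort kept live cells with EpCAM and MHC class II and without CD45, CD11c or Ly51, and 1-colour Agilent arrays were read for 3 samples per genotype. Of 4 biological replicates made per genotype, 1 was removed by the submitters after quality control. The sources used here give neither the deleted part of Mbd1 nor the strain, nor whether a sample held 1 animal or a pool, and p-values measure the spread between these samples.

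The binding domain can recognise a symmetrically methylated CpG pair, and the proteins of the family work with several different machines. MBD1 also carries CXXC zinc fingers and recruits the histone H3 lysine 9 methyltransferase SETDB1 through ATF7IP, MBD2 and MBD3 are alternative subunits of the NuRD remodelling and deacetylase complex, and MBD4 is a DNA glycosylase. MBD5 and MBD6 carry the domain but bind the PR-DUB histone deubiquitinase complex, while ZBTB33 (Kaiso) and ZBTB38 read methylated CpG through zinc fingers of another kind. The comparison addresses whether a relative was expressed more where Mbd1 was lost.

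The genotype names of the 2 kinds of deposited file did not match, and this bears on each result. The matrix has 6 columns named KO 1 to 3 and WT 1 to 3, and the 6 scanner files have titles of the same form. Over 40929 probes with a single spot, the rank order of 5 columns equalled that of the median spot signal of 1 scanner array each, while other pairs had rank correlations of 0.952 to 0.986. None of these 5 had the same name and number on both sides, and 4 had opposite genotypes. Columns KO 2 and KO 3 equalled the arrays titled WT 1 and WT 3. Column WT 1 equalled the array titled WT 2, and columns WT 2 and WT 3 equalled the arrays titled KO 1 and KO 3. Column KO 1 equalled none of the 6 arrays, and the array titled KO 2 equalled no column. Results are given by the matrix's column names first, then by the scanner titles, and no array was moved to another genotype.

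In the matrix columns Mbd1 fell and no relative passed the test in either direction. A column value is a log2 signal, and the 95th percentile of 5198 probes never above background lay between 5.46 and 5.62 in the 6 columns, which marks the level of an unexpressed gene. The test took each probe flagged well above background by 3 or more of the 6 arrays, which kept 11 of the 13 probes and 32678 of all. All background flags came from the scanner arrays, so column KO 1 had none of its own. The array titled KO 2, which equalled no column, was counted. Differences are KO minus WT from limma, with p-values adjusted over those 32678 probes and a threshold of 0.05. Of the 11 tested probes, 2 were called lower and 0 higher, against a background of 0.0122% of all tested probes called lower, 0.162% called higher and 0.174% called at all.

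Mbd1 (chromosome 18) was read by 3 probes. Probe A_51_P143224 read 5.64, 5.61 and 5.60 in the KO columns, against 8.83, 8.60 and 9.0 in the WT columns. The groups were far apart, and the KO columns lay just above the level of unexpressed probes. The means were 5.62 ± 0.02 in KO and 8.81 ± 0.20 in WT (SD, n = 3 each), the difference was -3.19 (SE 0.19, 95% interval -3.61 to -2.78), and limma's adjusted p was 6.1e-05. Probe A_52_P158923 read 5.28, 5.34 and 5.67 in the KO columns, against 8.50, 8.36 and 8.30 in the WT columns. It fell by 2.96 (SE 0.19, limma's adjusted p = 9.0e-05), and of all 32678 tested probes these 2 had the lowest differences.

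The third Mbd1 probe, A_52_P131423, carried another transcript accession and lay 12473 bases from A_52_P158923, whereas the first 2 probes lay 473 bases apart. It read 5.47, 5.67 and 5.60 in the KO columns, against 6.75, 6.60 and 6.34 in the WT columns. The groups did not overlap, as at the other 2 probes, and 4.05% of all tested probes lay lower in each KO column than in any WT column. The difference was -0.98 (SE 0.19, 95% interval -1.41 to -0.55), and it missed the threshold (limma's adjusted p = 0.126). Its WT columns lay close above the level of unexpressed probes. The matrix signal follows spot signal without background subtraction, so the KO over WT folds of 0.109, 0.129 and 0.507 understate the loss. In bulk RNA, fewer cells that express a gene and less RNA per cell cannot be told apart. With 3 columns against 3 an exact permutation test cannot go below p = 0.1, which each of the 3 probes reached (two-sided).

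**Figure D1:**
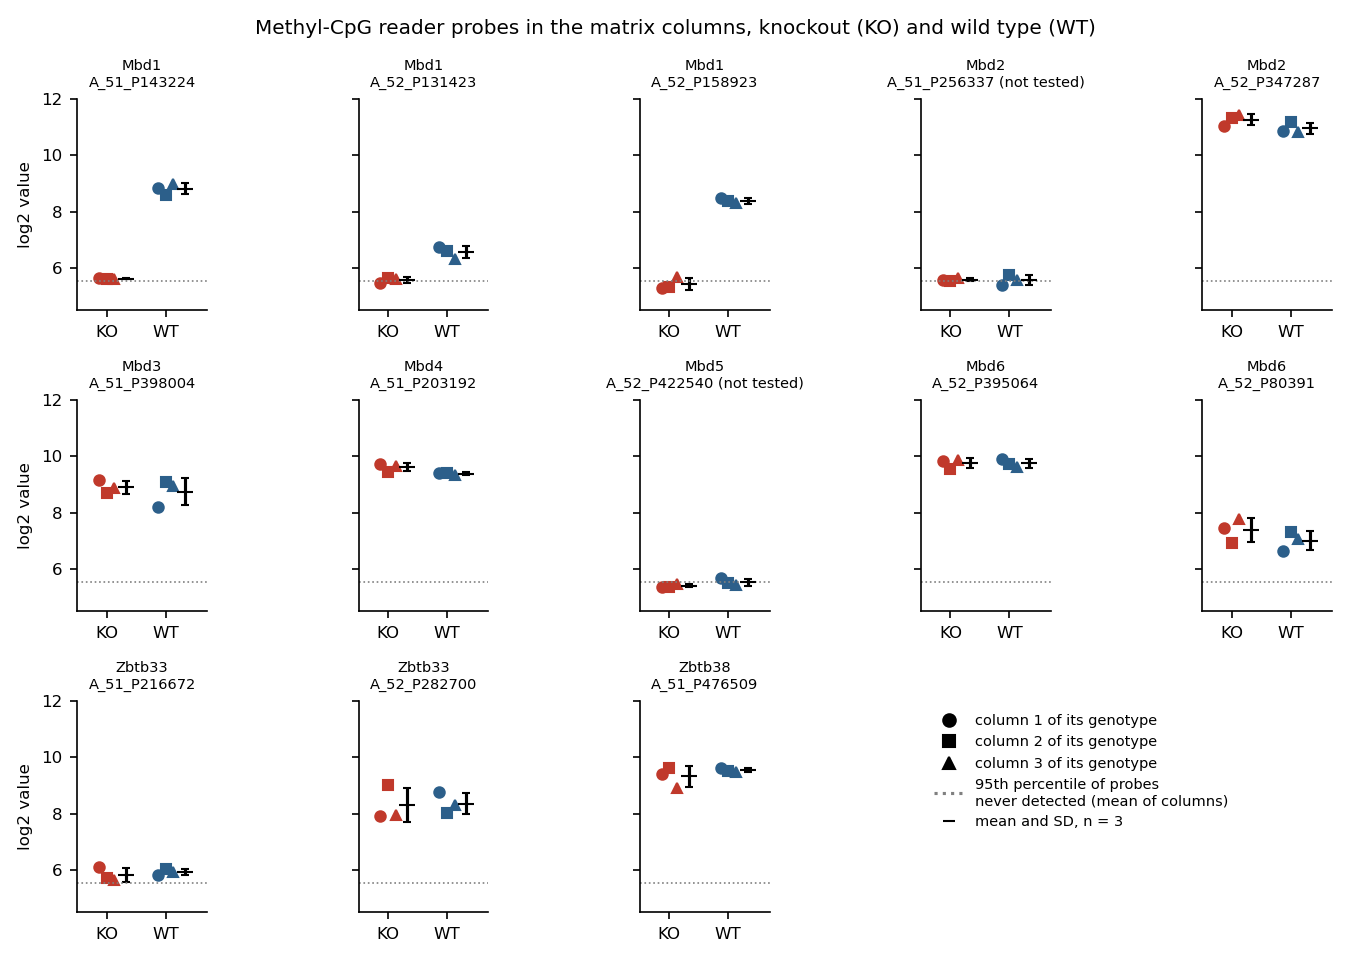
Log2 value of each methyl-CpG reader probe (y axis) in the KO and WT columns (x axis), 1 point per column, with mean and SD (n = 3) and, dotted, the 95th percentile of probes never above background. The KO columns of the 3 Mbd1 probes sit at that line, while KO and WT points of the relatives intermingle except at Mbd4.

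The 7 relatives had 10 probes, of which 8 probes of 6 genes were tested. None of the 8 was called, and 0 had an unadjusted limma p under 0.05, against 3.94% of all tested probes. Of the 8 differences, 5 were positive and 3 negative, from -0.23 to 0.37, with a median of 0.08 against -0.01 over all tested probes. All 8 of the 95% intervals lay within -1 and 1, as did 92.7% of all tested probes. The highest upper bound was 0.95, a KO over WT fold of 1.93, and the lowest lower bound was -0.73, a fold of 0.603. These bounds are of single probes and are no limit of detection, since larger differences elsewhere in the table, such as that of the third Mbd1 probe, were not called.

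MBD2 and MBD3 compete for the same place in NuRD, MBD2 being the strong binder of methylated CpG and mammalian MBD3 having lost most of that affinity. Mbd2 (chromosome 18) probe A_52_P347287 read 11.04, 11.32 and 11.44 in KO, against 10.87, 11.18 and 10.83 in WT. KO 1 lay below WT 2, so the groups overlapped, and the difference was 0.30 (SE 0.20, 95% interval -0.14 to 0.75, limma's adjusted p = 0.999). This spot was marked as non-uniform on 4 of the 6 scanner arrays. The second Mbd2 probe, A_51_P256337, lay 13559 bases away and was well above background on 2 of 6 arrays, so it was not tested. It read 5.54 to 5.65 in KO and 5.39 to 5.77 in WT. Mbd3 (chromosome 10) read 9.15, 8.68 and 8.87 in KO, against 8.19, 9.11 and 8.95 in WT. The spread among WT columns exceeded the gap between genotypes, and the difference was 0.15 (SE 0.26, 95% interval -0.42 to 0.72).

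Mbd4 (chromosome 6) encodes the glycosylase that removes thymine or uracil opposite guanine, the lesion left when a methylated or plain cytosine deaminates. It read 9.71, 9.45 and 9.67 in KO, against 9.42, 9.40 and 9.35 in WT. It was the only relative whose genotypes did not overlap, with each KO column above each WT column, as held for 4.06% of all tested probes. No overlap in either direction was seen in 8.11%. The difference was 0.22 (SE 0.18, 95% interval -0.18 to 0.63), a KO over WT fold of 1.17, with limma's adjusted p of 0.999.

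MBD5 and MBD6 bind PR-DUB, which removes ubiquitin from histone H2A, and do not depend on DNA methylation for their place on chromatin. Mbd5 (chromosome 2) was well above background on 1 of 6 arrays and was not tested. It read 5.37, 5.38 and 5.47 in KO, against 5.67, 5.52 and 5.42 in WT, at the level of unexpressed probes in both genotypes. Mbd6 (chromosome 10) probe A_52_P395064 read 9.83, 9.57 and 9.89 in KO, against 9.92, 9.71 and 9.61 in WT, a difference of 0.01 (SE 0.19, 95% interval -0.41 to 0.44). The other Mbd6 probe, A_52_P80391, lay 1616 bases away and read 7.46, 6.92 and 7.78 in KO, against 6.64, 7.31 and 7.08 in WT. Its difference of 0.37 (SE 0.26, 95% interval -0.20 to 0.95) was the largest of the relatives in either direction, and 10.4% of all tested probes differed by as much or more. It was 0.18 without column KO 3, 0.19 without WT 1 and 0.61 without KO 2 (limma's adjusted p = 0.677 for the last, unadjusted p under 0.05).

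Zbtb33 (chromosome X) encodes Kaiso, which recruits a corepressor complex and partners with p120 catenin. Probe A_52_P282700 read 7.93, 9.0 and 7.96 in KO, against 8.76, 8.01 and 8.31 in WT. The highest and the lowest columns were both KO, and the difference was -0.06 (SE 0.30, 95% interval -0.73 to 0.61), the widest interval of the relatives. Probe A_51_P216672, 2214 bases away, read 6.10, 5.72 and 5.65 in KO, against 5.84, 6.03 and 5.93 in WT, close to the level of unexpressed probes. Its difference was -0.11 (SE 0.20). Zbtb38 (chromosome 9), which encodes a Kaiso-like repressor, read 9.41, 9.63 and 8.92 in KO, against 9.63, 9.53 and 9.49 in WT. The WT columns lay close together and KO 3 lay lowest of all 6, and the difference was -0.23 (SE 0.22, 95% interval -0.71 to 0.25). It was -0.03 without column KO 3 and -0.39 without KO 2.

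**Figure D2:**
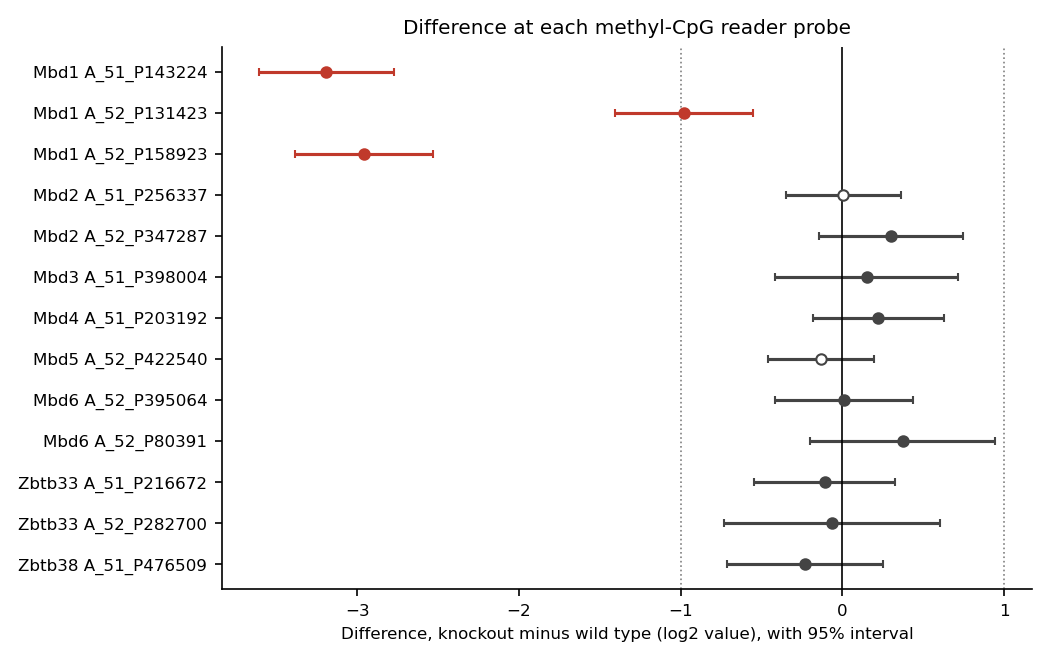
Difference of each methyl-CpG reader probe, KO minus WT, on the log2 scale (x axis) with its 95% interval; red marks Mbd1, open points were not tested, and dotted lines stand at -1 and 1. The intervals of the tested relatives cross 0 and stay between the dotted lines, while the 3 Mbd1 intervals lie wholly below 0.

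The readers' own promoters carry the CpG letters that the family reads, and 3 are shown for a NuRD, a repair and a Kaiso gene. Each is the 250 bases upstream of the start in RefSeq on build GRCm38.p6, 5′ to 3′ on the gene's strand, with CpG pairs in capitals. The windows are chr10:80399532-80399781 (minus strand) for Mbd3, chr6:115853342-115853591 (minus) for Mbd4 and chrX:38189543-38189792 (plus) for Zbtb33.
Mbd3: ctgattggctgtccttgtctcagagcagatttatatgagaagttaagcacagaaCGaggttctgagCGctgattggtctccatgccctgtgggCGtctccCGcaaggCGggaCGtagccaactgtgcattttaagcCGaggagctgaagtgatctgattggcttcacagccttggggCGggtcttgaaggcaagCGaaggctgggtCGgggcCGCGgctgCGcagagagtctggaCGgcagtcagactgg
Mbd4: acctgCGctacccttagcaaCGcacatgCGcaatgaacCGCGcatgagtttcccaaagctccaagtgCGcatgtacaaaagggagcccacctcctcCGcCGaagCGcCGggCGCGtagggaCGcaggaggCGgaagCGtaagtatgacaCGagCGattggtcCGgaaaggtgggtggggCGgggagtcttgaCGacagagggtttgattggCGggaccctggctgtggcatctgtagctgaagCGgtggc
Zbtb33: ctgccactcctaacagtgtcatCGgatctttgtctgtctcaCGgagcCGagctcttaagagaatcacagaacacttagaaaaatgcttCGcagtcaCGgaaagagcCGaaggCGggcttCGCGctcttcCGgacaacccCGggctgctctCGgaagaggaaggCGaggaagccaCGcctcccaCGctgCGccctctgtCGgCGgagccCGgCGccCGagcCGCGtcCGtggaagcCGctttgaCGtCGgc
These windows held 14 CpG pairs for Mbd3, 22 for Mbd4 and 27 for Zbtb33, against a median of 6 over 32851 promoters. Start sites were counted for 6 of the 8 genes, and none for Mbd1 or Mbd2, so the counts do not cover these genes. The 10 windows counted held 4 to 32 CpG pairs each, and 8 of the 10 held more than that median. The letters CGCG occurred in 7 of the 10 and in 33.8% of all promoters. The Kaiso motif TCCTGCNA, searched on both strands, occurred in 0 of the 10 and in 4.03% of all promoters. Methylation was not measured, and these counts are letters in a window only.

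Genes that read or act on methyl-CpG beside the family showed no call either. Over 6 lists of further readers and of the proteins the members work with, 64 genes were measured, each by its brightest tested probe. None was called in either direction, against 22 of 18679 genes measured, and 2 (3.13%) had an unadjusted limma p under 0.05, against 4.12% of all genes. Differences were positive for 40 and negative for 24, with a median of 0.05 against -0.01 over all genes.

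Of the 9 other readers, 6 differed positively and 3 negatively, with a median of 0.02. Uhrf1, which binds hemimethylated DNA during replication, read 10.15, 10.53 and 11.02 in KO, against 10.54, 9.57 and 10.36 in WT, a difference of 0.41 (SE 0.29, 95% interval -0.23 to 1.05). The genotypes overlapped. The Kaiso-like Zbtb4 differed by -0.25, with its other probe at 0.18, Uhrf2 by 0.18, and Zfp57, which holds methylation at imprinted loci, by 0.02. Among proteins with a domain related to the methyl-CpG binding domain, the differences were 0.10 for Baz2a, -0.38 for Baz2b, 0.41 for Setdb1 and 0.00 for Setdb2.

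The 14 MBD1 partners had a median of 0.11, with 9 positive differences. Atf7ip, the bridge from MBD1 to SETDB1, read 11.76, 11.66 and 12.13 in KO, against 11.65, 11.50 and 11.23 in WT. The KO columns all lay above the WT columns, the difference was 0.39 (SE 0.21, 95% interval -0.07 to 0.85, limma's adjusted p = 0.999), and the 4 tested Atf7ip probes ranged from -0.19 to 0.39. Setdb1 read 7.56, 8.13 and 7.60 in KO, against 7.01, 7.59 and 7.47 in WT, with overlap (difference 0.41, SE 0.23). Ring1 and Rnf2, the ubiquitin ligases of Polycomb complex 1, differed by 0.25 and 0.26 and did not overlap. Each KO column lying above each WT column, as for Atf7ip, Ring1 and Rnf2, held for 4.06% of all tested probes.

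The NuRD list had 7 positive differences of 13 and a median of 0.00. Rbbp7, a histone-binding subunit, read 10.59, 10.94 and 10.63 in KO, against 11.34, 11.06 and 11.07 in WT. Each KO column lay below each WT column, as held for 4.05% of all tested probes. Rbbp7 differed by -0.44 (SE 0.20, limma's adjusted p = 0.999, unadjusted p under 0.05). The remodeller Chd4 differed by 0.35 at its brightest probe and by down to -0.14 at another, Cdk2ap1 by 0.34 without overlap, and Mta3 by -0.16. Among the 12 repair partners of MBD4, 10 differed positively, with a median of 0.14. Pold1, the catalytic subunit of DNA polymerase delta, read 11.91, 11.77 and 11.89 in KO, against 11.08, 11.57 and 11.50 in WT, a difference of 0.47 (SE 0.20, limma's adjusted p = 0.999, unadjusted p under 0.05). The glycosylases Neil1 and Ung differed by 0.46 and 0.26, and the scaffold gene Xrcc1 by 0.25. Each KO column lay above each WT column for Cdk2ap1, Pold1 and Ung, as held for 4.06% of all tested probes.

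The 9 PR-DUB genes had a median of 0.07 and the 8 Kaiso partners a median of -0.03. Of the PR-DUB genes 6 differed positively, among them the cofactor Hcfc1 (0.41) and the scaffold Asxl1 (0.25). Other probes went down to -0.14 for Hcfc1 and -0.28 for Asxl1. Foxk2 differed by -0.22 at its brightest probe and up to 0.91 at another, while Asxl2 differed by -0.07. Of the Kaiso partners 3 differed positively, and the corepressor subunit Tbl1xr1 differed by -0.18, with its other probes at -0.28 and 0.25. Ctnnd1, which encodes p120 catenin, differed by -0.06 and the deacetylase gene Hdac3 by 0.05.

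**Figure D3:**
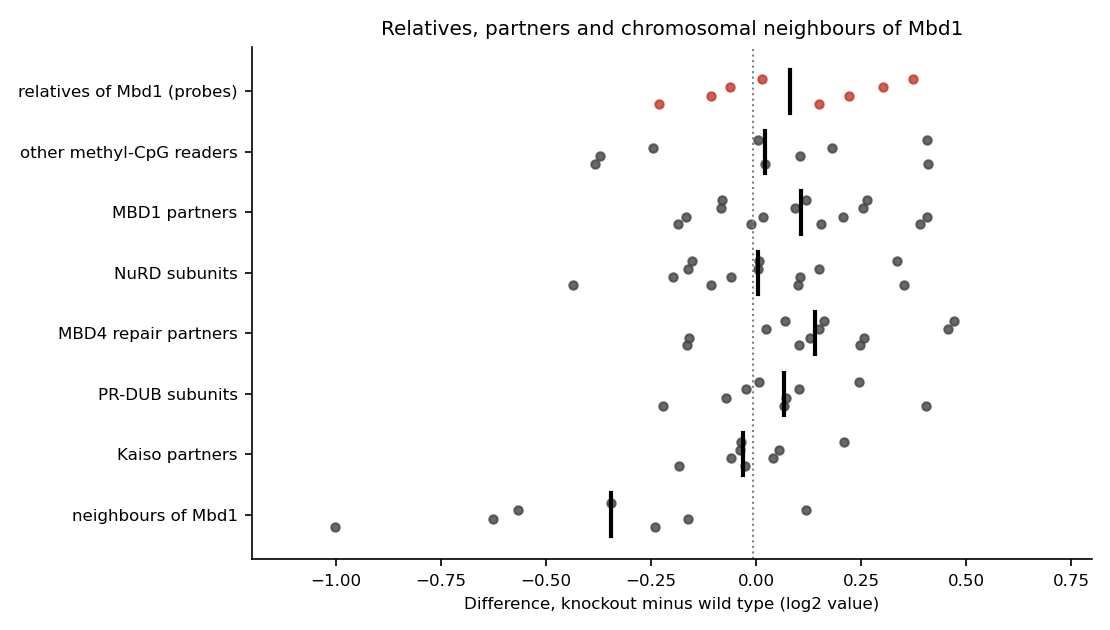
Difference, KO minus WT, on the log2 scale (x axis) for the 8 tested probes of the relatives (red) and for the measured genes of each list (grey). Bars are list medians, and the dotted line is the median of all genes measured. Medians of the relatives and of the 6 reader and partner lists lie between -0.03 and 0.14, and that of the chromosomal neighbours of Mbd1 at -0.35.

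Genes beside Mbd1 on chromosome 18 were also read, from the 10 nearest on each side in the RefSeq order. Of these 20, 7 were measured, 0 were called, 2 had an unadjusted limma p under 0.05, and 6 of the 7 differences were negative, with a median of -0.35. Over all genes, 4.12% had an unadjusted p under 0.05 and 48.7% differed positively. Cfap53, a cilia and flagella gene, read 8.31, 8.44 and 9.20 in KO, against 10.25, 9.54 and 9.16 in WT. KO 3 overlapped WT 3, the difference was -1.0 (SE 0.31, 95% interval -1.68 to -0.33), and limma's adjusted p was 0.716 with an unadjusted p under 0.05. Ska1, a gene of the spindle and kinetochore complex, read 5.79, 5.94 and 5.16 in KO, against 6.15, 6.59 and 6.04 in WT (difference -0.63). Its columns did not overlap, and 4.05% of all tested probes lay lower in each KO column than in any WT column. The probe was dim, and KO 3 lay under the level of unexpressed probes. Mro differed by -0.57, with its other probe at -1.03. Myo5b, a motor of vesicle transport, differed by -0.35, and its 4 tested probes ranged from -0.44 to 0.09.

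The 5 probes of other genes with the profile most like Mbd1 probe A_51_P143224 were chosen by the root mean square distance between profiles over the 6 columns, each centred on its mean. They were Mrps35 (distance 0.43), Plcz1 (0.78), Synpr (0.94), Hebp1 (1.01) and BC064078 (1.02). Mrps35, which encodes a mitochondrial ribosomal protein, read 10.75, 9.80 and 10.35 in KO, against 12.85, 13.25 and 12.92 in WT, and fell by 2.71 (SE 0.25, limma's adjusted p = 0.00125). BC064078 fell by 1.20 (limma's adjusted p = 0.045), and with the 2 Mbd1 probes and Mrps35 it made up the 4 probes called lower. Of the 5 genes, 4 lay on chromosome 6 and Synpr on chromosome 14, while Mbd1 lies on chromosome 18. Plcz1, Synpr and Hebp1 differed by -1.95, -1.64 and -1.23 and were not called. Likeness was the rule by which the 5 were chosen, so their differences are a description.

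The columns came from different slides. Columns KO 2, KO 3 and WT 1 equalled arrays of slide 1, columns WT 2 and WT 3 arrays of slide 2, and the slide of column KO 1 was unknown. Over the 5 columns of known slide, the fit with the slide as a block and the fit within slide 1 give the same differences, which rest on WT 1 as the one WT column of that slide. The Mbd1 probes differed there by -3.22, -3.0 and -1.12, and 0 probes were called. For the first 2, limma's adjusted p was 0.0727 each with the block, and 0.228 and 0.253 within slide 1. The relatives' differences were 0.51 for Mbd2, 0.59 for Mbd3, 0.14 for Mbd4, -0.19 and 0.70 for Mbd6, -0.27 and -0.15 for Zbtb33 and -0.35 for Zbtb38. None had an unadjusted limma p under 0.05, but the upper bounds reached 1.64 with the block and 1.81 within the slide, so the intervals of some relatives there include a rise of over 1.

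On the scanner arrays Mbd1 did not follow the genotype given in the titles. The processed intensity of A_51_P143224 was 356, 17.2 and 682 on the arrays titled KO 1 to 3, against 20.9, 305 and 15.6 on those titled WT 1 to 3. The array titled KO 2 and the arrays titled WT 1 and WT 3 were dim, and the other 3 were bright. A_52_P158923 showed the same split, with 233, 21.3 and 313 on the arrays titled KO, against 7.39, 190 and 9.10 on those titled WT. A_52_P131423 read 75.7, 93.3 and 91.5 on the arrays titled KO, against 26.0, 63.3 and 28.1 on those titled WT. At this probe the array titled KO 2 was the brightest of the 6, unlike at the other 2 probes.

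On log2 intensity scaled to each array's 75th percentile, the difference of A_51_P143224 between titles was 1.59 (95% interval -2.17 to 5.36). With the titles as given, 0 of 32201 probes were called by limma (0.0%), and 1325 (4.11%) had an unadjusted p under 0.05. All 3 arrays titled KO were on slide 2 and all 3 titled WT on slide 1, so title and slide cannot be told apart in any of these differences. The relatives differed by 0.39 for Mbd3, 0.02 for Mbd4, 0.22 and 0.43 for Mbd6, -0.14 and 0.88 for Zbtb33 and 0.11 for Zbtb38. The 0.88 was that of the dim Zbtb33 probe A_51_P216672 (95% interval 0.04 to 1.72, limma's adjusted p = 0.997, unadjusted p under 0.05), which differed by -0.11 in the matrix columns. Mbd2 was not fitted there, because its spot was marked as an outlier on 4 arrays, among them all 3 titled KO. Its processed intensity was 2981, 4377 and 3492 on the arrays titled KO, against 3438, 1602 and 3435 on those titled WT.

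**Figure D4:**
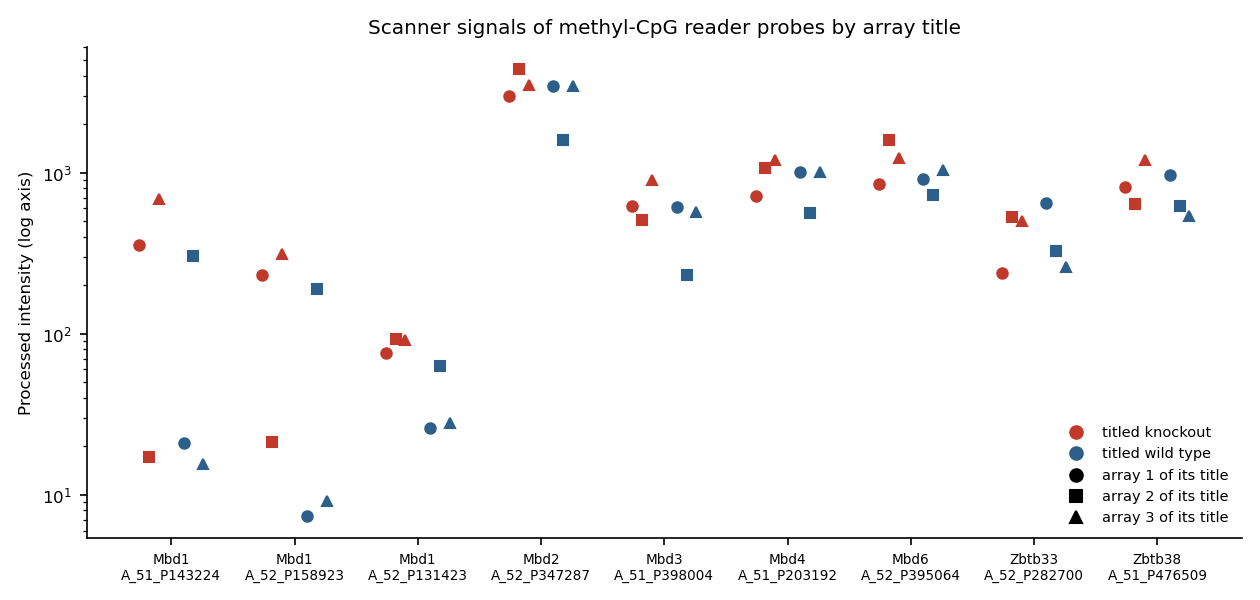
Processed intensity on a log axis (y) for probes of the readers on the scanner arrays titled KO (red, left) and WT (blue, right); marker shape gives the array number. For Mbd1 A_51_P143224 the arrays titled KO 1, KO 3 and WT 2 lie at 305 to 682 and the other 3 at 15.6 to 20.9, so neither title forms one group.

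The sorted cells carried the mTEC markers of their label. All 16 mTEC markers, Aire and Fezf2 among them, were well above background on 6 of 6 arrays, with a mean level of 12.6 to 12.7 in the KO columns and 12.6 to 12.7 in the WT columns. Markers of other cells were also above background, and their levels differed between columns, none of them called. Genes of the 3 markers that the sort excluded were among them. Ptprc (CD45) and Enpep (Ly51) were well above background on 6 of 6 arrays and Itgax (CD11c) on 5. At their brightest probes these genes differed by 0.04, 0.05 and 0.47, the last with an unadjusted limma p under 0.05. The mean of the 11 measured T lineage markers was 8.49 to 8.74 in KO and 7.92 to 8.21 in WT, without overlap. Of these, 10 differed positively, against 48.7% of all genes, 5 had an unadjusted limma p under 0.05, against 4.12% of all genes, and the median difference was 0.47. Cd8b1 differed by 0.97, with its other probe at 0.14. Dntt differed by 0.91, with its 3 tested probes from 0.63 to 0.91, and Rag2 was never above background. These were the largest differences of the list, while Cd4, Lck and Ptcra differed by 0.02, 0.06 and -0.02 at their brightest probes. The 9 measured dendritic cell and macrophage markers averaged 9.15 to 9.17 in KO and 8.84 to 9.02 in WT, also without overlap. Their median difference was 0.35 (6 positive, 2 with an unadjusted p under 0.05), and Siglech was never above background. Cortical epithelial markers averaged 9.93 to 10.10 in KO and 9.76 to 9.92 in WT, narrowly without overlap (7 of 8 positive, 1 with an unadjusted p under 0.05). B lineage markers averaged 8.86 to 9.19 in KO and 8.59 to 8.92 in WT, with overlap (6 of 10 positive, median 0.08, 1 with an unadjusted p under 0.05). Fibroblast and endothelial markers averaged 8.45 to 8.83 in KO and 8.30 to 8.61 in WT, with overlap (5 of 7 positive, 0 with an unadjusted p under 0.05). Among the B lineage markers Jchain, a chain of secreted antibodies, differed by 1.74, and none of the other 9 by more than 0.44 in size. The part of these cells in the readers' levels was not tested.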

How the data were processed

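RNA of sorted mTECs was amplified with a whole transcriptome kit, given a Cy3 label and read on 6 Agilent mouse arrays, per the labels' protocols. The deposited scanner files hold intensity values per spot from Agilent Feature Extraction (10.7.3.1 per the file headers, 10.6 per the submitters' processing notes), background-subtracted in the processed signal. The authors' deposited matrix holds log2 values in 6 columns with near-equal medians (7.13 to 7.14); its normalization tool and coordinate build were not given in the sources used here. It also holds the authors' deposited log2 ratio and fold of KO over WT, p-values and a log-odds score; the ratio equalled the column mean difference, and the score was not used. No spot was saturated, and 73.5% to 81.3% of the 41174 probes per array were well above background. The number of arrays limits the precision.

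Columns were grouped by name and fitted in R 4.3.3 with limma 3.58.1 (lmFit, eBayes), and p-values were adjusted by Benjamini-Hochberg over the probes well above background on 3 or more arrays. The script was tested on simulated data. Probes were named by Entrez ID (30342), synonym (994) or the file's own symbol (4277); 5561 had none. All probes of the 8 genes were named in the text, and from each list up to 4 genes of smallest p, all other readers, and the 5 profiles nearest to Mbd1, except 2 genes not reported here. Members and lists were chosen with earlier results of these data known. Alternatives were other filters, probe rules, scalings and moderation, slide and replicate terms, columns left out, and the scanner titles with and without normexp. Normexp (offset 50) ran on median spot and background signals; the mean signal was not used here.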

Additional observations from a re-analysis of the deposited data

How the results depend on the processing

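In the 8 tested probes of the relatives and in the 6 lists, 0 were called under every alternative run. Where a value moved, the cause was not tested unless named. The 2 called Mbd1 probes became 0 where a probe had to be well above background on all 6 arrays, since both then leave the test. They became 1 with the mean over a gene's probes or its brightest probe, since Mbd1 then counts once. They became 0 with the slide block, within slide 1 (fewer columns), and under the scanner titles with either background correction. All probes called, 57, became 26 with no filter, 20 with the mean over probes, 19 with the brightest probe, 95 with the replicate block, and 0 with the slide block, within slide 1 and under the titles with either correction. Leaving out a column gave 27 (without WT 2) to 81, and 34 without WT 3; the 2 Mbd1 probes stayed called, with limma's adjusted p of 7.4e-05 to 0.00196. Same-numbered columns' deviations from their genotype's mean correlated at -0.29, -0.18 and -0.33, which gave no sign of pairing by number. Deviations sum to 0 within a genotype, which ties these correlations together, so they cannot settle whether the numbers pair the samples. The replicate block called the same 2 members and no relative.

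Under the scanner titles the Mbd1 probes A_51_P143224, A_52_P158923 and A_52_P131423 reversed to 1.59, 2.10 and 1.06, and with normexp to 0.85, 0.77 and 0.33. Zbtb33 A_51_P216672 reversed to 0.88 and, with normexp, 0.23, and Zbtb38 to 0.11 without normexp. With normexp Mbd2 A_52_P347287 was -0.015 and Mbd4 -0.062. Mbd6 A_52_P395064 was -0.19 with the slide block and within slide 1. Leaving out a column gave -0.13 to 0.33 for Mbd3, -0.056 to 0.11 for Mbd6 A_52_P395064 and -0.41 to 0.14 for Zbtb33 A_52_P282700, the relatives whose sign depended on 1 column. It gave 0.18 to 0.61 for Mbd6 A_52_P80391, -0.39 to -0.03 for Zbtb38 and -0.25 to -0.02 for Zbtb33 A_51_P216672. Of the relatives' 8 upper bounds, 5 were under 1 with the slide block, 4 within slide 1, and 7 without KO 1, KO 2, WT 2 or WT 3 (highest 1.18). A filter that left out outlier spots, added after the data were seen, dropped Mbd2 and changed no call.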

Other observations

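Mbd3l1 and Mbd3l2, relatives of Mbd3 that lack the DNA-binding domain, were looked at after their values were seen. Neither was well above background on any of the 6 arrays. Mbd3l1 read 5.16, 5.23 and 5.30 in KO, against 5.21, 5.38 and 5.30 in WT. Mbd3l2 read 5.64, 5.14 and 5.10 in KO, against 5.29, 5.01 and 5.57 in WT.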
